A study of Mus musculus with 6 samples.

Results

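The genes described here are 10 costimulatory genes of activated T cells: Cd28, Icos, Cd27, Tnfrsf4 (OX40), Tnfrsf9 (4-1BB), Tnfrsf18 (GITR), Tnfrsf1b (TNFR2), Cd40lg (CD40 ligand), Slamf1 (CD150) and Cd226 (DNAM-1). They were chosen by symbol, by a rule that uses no measured value, with earlier results of these data known, and all 10 were found among the 24589 gene symbols of the expression table. Of these, 9 encode receptors and Cd40lg encodes a membrane-bound ligand of the TNF family that T cells present to other cells. Bulk RNA-seq had been run on mouse CD8+ T cells, which are the killer cells of the lymphocyte lineage, and the comparison addressed here is which costimulatory transcripts differed after exposure to a dietary fatty acid. The TVA group (3 libraries) had 20 µM trans-vaccenic acid, a trans fatty acid of ruminant fat, for 24 h, and the DMSO group (3 libraries) had the solvent alone. Per the study's methods, cells of both groups came from spleen and lymph nodes of C57BL/6 mice, were purified with a magnetic bead kit for CD8 T cells, a step meant to remove other cell types, and had been activated on plates coated with antibodies to CD3 and CD28. Every library therefore came from cells already engaged through the product of Cd28. The labels do not say whether the replicates were separate animals or cultures, so the p-values measure the spread between these libraries, which may be technical.

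A naive T cell needs a signal through its antigen receptor and another through a costimulatory receptor in order to divide and to make cytokines. CD28 is present before activation and lowers the threshold for it through PI3-kinase and NF-kB, whereas ICOS, OX40, 4-1BB and GITR are displayed in quantity after activation and sustain division and survival. The receptors of the TNF receptor family recruit TRAF adaptors when trimeric ligands cluster them, while SLAMF1, with SAP-linked kinases, and CD226, with the integrin LFA-1, act at cell contacts.

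The labelled cell type was checked against marker genes. The summed level of 5 CD8 T cell markers was 1516 to 1638 TPM in DMSO and 1756 to 1787 TPM in TVA. These were Cd3d, Cd3e, Cd3g, Cd8a and Cd8b1, and TPM is transcript abundance corrected for length and put on a common total per library. Of the 5, 1 passed the test as higher, Cd3g, beside 5.28% of all genes tested. Without DMSO replicate 2, 3 of the 5 did, where 20.6% of all genes passed in either direction. The groups did not overlap for 4 of the 5, with TVA higher, beside 27.3% of all genes. CD4 T cell markers (Cd4 and Zbtb7b) summed to 9.44 to 11.1 TPM in DMSO and 7.96 to 9.54 TPM in TVA, regulatory T cell markers (Foxp3 and Ikzf2) to 3.36 to 3.98 and 3.69 to 4.07 TPM, NK cell markers (Ncr1, Klrb1c and Klra8) to 0.72 to 1.08 and 0.23 to 0.69 TPM, and 5 B cell markers, carried mainly by Cd79b, to 11.3 to 14.9 and 10.65 to 11.02 TPM. Myeloid markers summed to 35.0 to 37.5 TPM in DMSO and 46.8 to 49.0 TPM in TVA, carried mainly by Lyz2. Of the 4 tested, 1 passed as higher, beside 5.28% of all genes. With GC correction 2 did, where 10.3% of all genes passed in either direction. The DMSO libraries were not alike: on the first principal component of all genes tested, DMSO replicate 2 lay at 1.23, between the TVA libraries (8.80 to 10.8) and the other DMSO libraries (-18.2 and -12.8). Across genes, the change between the groups also ran with the GC content of the transcripts (Spearman correlation -0.40 over genes, which are not independent). Counts from fits without that library and with a GC correction are given beside the count for the 10 genes, and values from these fits for some single genes.

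Several of the genes lie close together (positions are GENCODE vM21 gene bounds on GRCm38). Cd28 (chromosome 1, 60716800 to 60773359, plus strand) and Icos (chromosome 1, 60977927 to 61000320, plus strand) flank Ctla4, with 113.6 kb between Cd28 and Ctla4, 62.1 kb between Ctla4 and Icos and no other protein-coding gene in either gap. Tnfrsf4 (chromosome 4, 156013843 to 156016612, plus strand) and Tnfrsf18 (chromosome 4, 156026164 to 156028895, plus strand) are direct neighbours 9.6 kb apart. Tnfrsf9 (chromosome 4, 150914562 to 150946102, plus strand) is separated from Tnfrsf4 by 83 protein-coding genes and from Tnfrsf1b (chromosome 4, 145213463 to 145246870, minus strand) by 75. Slamf1 lies on chromosome 1 (171767127 to 171801184, plus strand), Cd27 on chromosome 6 (125232622 to 125237010, minus strand) and Cd40lg on chromosome X (57212143 to 57224042, plus strand).

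The promoters of Tnfrsf9 and Tnfrsf4 are shown because these 2 receptors changed in opposite directions and had the smallest adjusted p values among the 10 genes. The 250 bases before each annotated start were read from RefSeq (GRCm38.p6, plus strand, 5′ to 3′), and 6 of the 10 genes matched an entry. Each window was searched on both strands for the NF-kB consensus, for the AP-1 motif TGANTCA, for the cAMP response element core TGACG and for the full element, in which the core is followed by TCA. Capitals mark the matches.
Tnfrsf9, upstream start, chr4:150919905-150920154: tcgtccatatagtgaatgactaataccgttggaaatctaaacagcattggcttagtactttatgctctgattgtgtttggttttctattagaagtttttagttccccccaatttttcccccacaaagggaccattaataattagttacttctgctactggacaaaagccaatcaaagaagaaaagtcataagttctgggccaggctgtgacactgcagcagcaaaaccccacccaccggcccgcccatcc
Tnfrsf9, downstream start, chr4:150927749-150927998: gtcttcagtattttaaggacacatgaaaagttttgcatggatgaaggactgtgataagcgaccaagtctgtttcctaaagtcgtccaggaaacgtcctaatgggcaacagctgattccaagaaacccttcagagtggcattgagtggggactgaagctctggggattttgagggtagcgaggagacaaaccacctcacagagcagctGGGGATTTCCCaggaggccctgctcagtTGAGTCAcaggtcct
Tnfrsf4, chr4:156013445-156013694: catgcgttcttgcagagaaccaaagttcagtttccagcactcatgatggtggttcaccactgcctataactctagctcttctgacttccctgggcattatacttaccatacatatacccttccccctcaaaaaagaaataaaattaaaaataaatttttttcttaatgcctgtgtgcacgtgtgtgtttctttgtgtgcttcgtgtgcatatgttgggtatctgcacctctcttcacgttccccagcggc
Of the windows of the 6 genes, only the downstream Tnfrsf9 window held any match. It had an NF-kB consensus matched in 2 overlapping registers 33 to 43 bases before the start and an AP-1 motif 9 to 15 bases before it. Among 32851 windows of this length, 7.25% held the NF-kB consensus, 6.75% the AP-1 motif, 1.55% the full cAMP response element and 17.8% its core. A match is a run of letters and was not shown here to be a site in use, and the expression table gives 1 value per gene, so it does not say which start of Tnfrsf9 was used.

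Of the 10 costimulatory genes, 2 rose with TVA (Tnfrsf9 and Cd28) and 2 fell (Tnfrsf4 and Cd40lg), and 6 did not pass the test. Tnfrsf9 mRNA was 26.0% higher, Cd28 15.6% higher, Tnfrsf4 25.3% lower and Cd40lg 24.7% lower by group means. The test was limma on log2(TPM + 1), adjusted by the Benjamini-Hochberg method over 10866 genes, with a threshold of 0.05, and 8.51% of all genes tested passed it (5.28% higher and 3.23% lower). The median change of the 10 genes was -0.02 on the log2 scale, beside 0.04 for all genes tested, with 5 changes above 0 and 5 below. The groups did not overlap for 5 of the 10 genes, 2 with TVA higher and 3 with TVA lower, where the shares of all genes tested were 38.6% in all, 27.3% higher and 11.2% lower. The summed level of the 10 genes was 1401 to 1518 TPM in DMSO and 1454 to 1480 TPM in TVA, so the groups overlapped in the total and differed in its make-up. No change reached 1.5-fold. In bulk samples, a change in the number of cells that carry a transcript and a change in its amount per cell cannot be told apart.

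**Figure D1:**
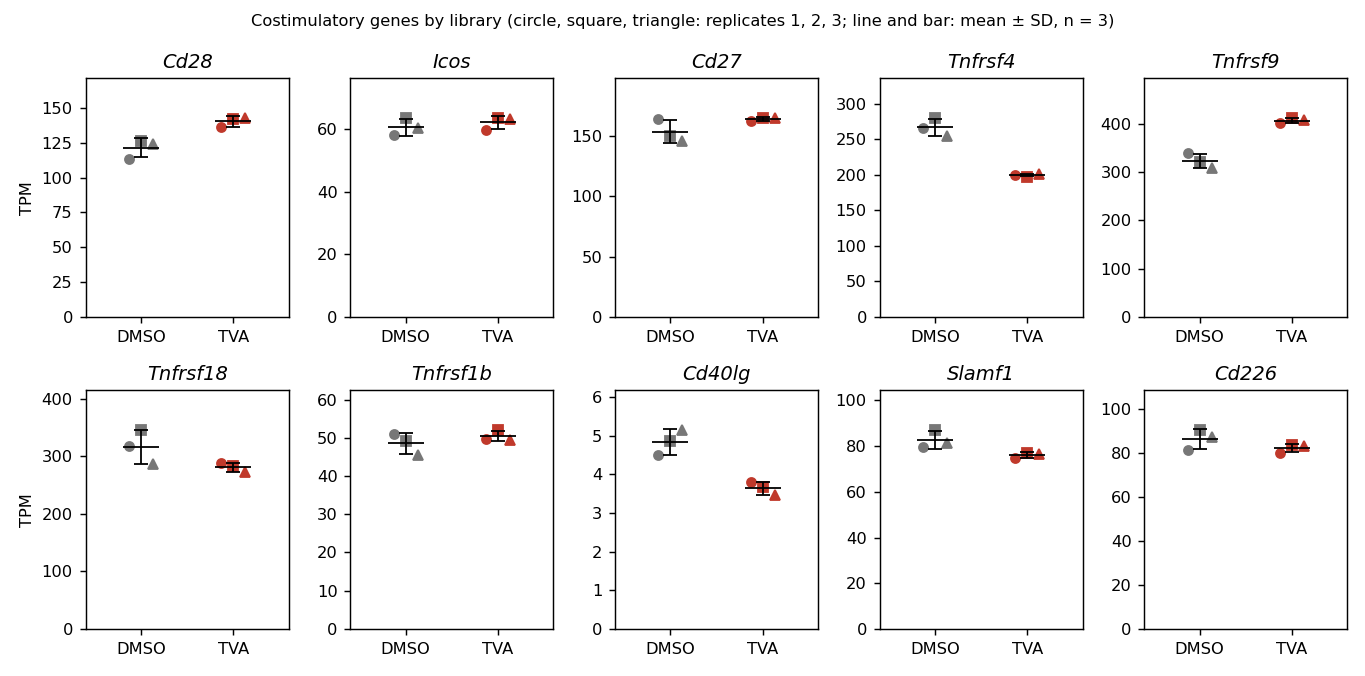
Level of each of the 10 costimulatory genes (TPM, vertical axis, a separate scale for each gene) in the 3 DMSO and 3 TVA libraries, with the mean and SD of each group. The TVA libraries of Tnfrsf9 (401 to 411 TPM) lie above and those of Tnfrsf4 (198 to 201 TPM) below all DMSO libraries, while the groups overlap for Icos, Cd27, Tnfrsf18, Tnfrsf1b and Cd226.

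These counts depended on single libraries. With 1 library left out, between 1 and 5 of the 10 genes passed: 5 without DMSO replicate 1 (beside 8.7% of all genes tested), 4 without DMSO replicate 2 (20.6%), 2 without DMSO replicate 3 (2.71%), 2 without TVA replicate 1 (1.15%), 1 without TVA replicate 2 (0.939%) and 1 without TVA replicate 3 (1.04%). Of the 10 genes, Tnfrsf4 alone passed in each of these fits. After correction for GC content 6 passed, 2 higher (Tnfrsf9 and Cd27) and 4 lower (Tnfrsf4, Cd40lg, Slamf1 and Cd226), against 10.3% of all genes, and Cd28 was no longer among them. With median-of-ratios scaling (6.94% of all genes) or quantile normalization (7.13%) 1 passed as higher and 2 as lower. With all genes above 0 TPM in the fit 2 passed (2.95% of all genes), at a mean of 10 TPM or more 3 (8.04%), without the variance trend 3 (7.5%) and with a pseudocount of 0.1 4 (8.65%).

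Tnfrsf9 encodes 4-1BB, a TNF receptor family member that sustains the survival and effector function of activated CD8 T cells. It stood at 338, 321 and 308 TPM in DMSO replicates 1 to 3 and at 401, 411 and 408 TPM in TVA replicates 1 to 3. Every TVA library lay above every DMSO library, and the spread within TVA was small beside the gap. The mean rose from 322 ± 15.0 TPM (SD, n = 3) to 406 ± 5.45 TPM, a log2 change of 0.33 (SE 0.043, 95% interval 0.24 to 0.43, limma adjusted p = 0.0078). The call was lost without TVA replicate 2 (adjusted p = 0.062) or TVA replicate 3 (adjusted p = 0.054), with log2 changes of 0.33 in both fits. The myeloid markers moved in the same direction. All 4 tested had a log2 difference above 0 with no overlap between the groups, beside 27.3% of all genes. Lyz2 was called higher (30.3 ± 1.18 to 39.7 ± 1.63 TPM, limma adjusted p = 0.0076), beside 5.28% of all genes. Csf1r, Itgam and Cd14 did not pass (limma adjusted p = 0.082, 0.088 and 0.083). Itgam stood at 2.19 to 2.40 TPM in DMSO and 2.74 to 3.01 TPM in TVA, Cd14 at 1.75 to 2.34 and 2.51 to 2.77 TPM, Csf1r at 0.64 to 0.82 and 1.00 to 1.28 TPM, Adgre1 at 0.26 to 0.50 and 0.57 to 0.89 TPM and Itgax at 0.78 to 0.86 and 0.69 to 1.07 TPM. Myeloid cells, which the bead purification is meant to remove, can also express Tnfrsf9, and the part of any that were left in its change was not tested.

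Tnfrsf4 encodes OX40, a TNF receptor family member that appears on T cells after antigen contact and prolongs their survival. Its levels were 266, 280.0 and 255 TPM in DMSO and 199.6, 198 and 201 TPM in TVA. All 3 TVA libraries lay below the lowest DMSO library, and they were close to each other. The mean fell from 267 ± 12.4 TPM (SD, n = 3) to 199.4 ± 1.51 TPM, a log2 change of -0.42 (SE 0.042, 95% interval -0.52 to -0.32, limma adjusted p = 0.0032). The call held in all 14 alternatives, with adjusted p from 7.7e-04 to 0.034 and, without DMSO replicate 2, a log2 change of -0.38.

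Tnfrsf18 encodes GITR, the closest neighbour of Tnfrsf4 on the chromosome and a costimulator of activated and regulatory T cells. It stood at 317, 345 and 287 TPM in DMSO and at 288, 284 and 272 TPM in TVA. DMSO replicate 3 overlapped the TVA libraries, and the DMSO libraries spread over a wider range than those of any other gene of the 10. The means were 316 ± 29.2 and 281 ± 7.85 TPM, with a log2 difference of -0.17 (95% interval -0.32 to -0.01) that did not pass (limma adjusted p = 0.13, and 0.062 to 0.34 over the 14 alternatives). In the annotation, 414 of the 1524 exonic bases of Tnfrsf18 (27.2%) overlap the antisense gene Gm16008. Whether the quantification used strand is not stated in the sources used here, so reads of the pair cannot be told apart.

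Cd27 encodes a TNF receptor family member already present on naive T cells that supports the expansion of primed cells. Its levels were 165, 150.1 and 146 TPM in DMSO and 162, 165 and 165 TPM in TVA. DMSO replicate 1 lay at the level of the TVA libraries, and the other DMSO libraries lay below all of them. The means were 154 ± 9.67 and 164 ± 1.49 TPM, with a log2 difference of 0.10 (95% interval -0.02 to 0.21, limma adjusted p = 0.22). Without DMSO replicate 1 it passed as higher (log2 0.15, adjusted p = 0.036), as it did after GC correction (log2 0.14, adjusted p = 0.021). Tnfrsf1b, which encodes the TNFR2 receptor for TNF and lymphotoxin, had 51.0, 49.1 and 45.6 TPM in DMSO and 49.8, 52.0 and 49.5 TPM in TVA. The groups overlapped, and the log2 difference of 0.05 (95% interval -0.06 to 0.17) did not pass in this fit or in any of the 14 alternatives (limma adjusted p = 0.48).

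Cd28 encodes the receptor for CD80 and CD86 and is the founding member of its family. It had 113, 126 and 124.5 TPM in DMSO and 136, 142 and 143 TPM in TVA. All TVA libraries lay above all DMSO libraries. The mean rose from 121 ± 6.96 to 140.4 ± 3.72 TPM (SD, n = 3), a log2 change of 0.21 (SE 0.050, 95% interval 0.09 to 0.32, limma adjusted p = 0.045). The call stood close to the threshold: it was kept in 4 of 14 alternatives, among them the fit without DMSO replicate 2 (adjusted p = 0.018). It was lost without DMSO replicate 3 (adjusted p = 0.079) and without TVA replicate 1, 2 or 3 (adjusted p = 0.10, 0.18 and 0.17), and after GC correction its log2 change was 0.12 (adjusted p = 0.053).

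Icos encodes the inducible relative of CD28, which signals strongly through PI3-kinase. It had 58.2, 63.6 and 60.4 TPM in DMSO and 59.8, 63.6 and 63.3 TPM in TVA. The groups overlapped throughout, and the log2 difference was 0.04 (95% interval -0.07 to 0.14, limma adjusted p = 0.63), which became -0.05 after GC correction (adjusted p = 0.35). The interval of the reported fit leaves out a rise as large as the fitted change of Cd28, although the difference between the 2 genes' changes was not tested. Between them lies Ctla4, the inhibitory receptor that competes with CD28 for the same ligands. It had 66.3, 76.1 and 72.3 TPM in DMSO and 58.8, 54.9 and 53.3 TPM in TVA. The groups did not overlap, and Ctla4 fell by 0.36 on the log2 scale (SE 0.060, limma adjusted p = 0.018). Ctla4 no longer passed without DMSO replicate 3 (adjusted p = 0.060) and without TVA replicate 1, 2 or 3 (adjusted p = 0.057, 0.0996 and 0.098). Along this stretch of chromosome 1, the fitted log2 changes were thus 0.21 for Cd28, -0.36 for Ctla4 and 0.04 for Icos.

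Cd40lg, whose product licenses B cells and dendritic cells through CD40, was the least abundant of the 10 genes. It had 4.49, 4.87 and 5.14 TPM in DMSO and 3.80, 3.66 and 3.46 TPM in TVA. All TVA libraries lay below all DMSO libraries. The mean fell from 4.83 ± 0.327 to 3.64 ± 0.171 TPM (SD, n = 3), a log2 change of -0.33 (SE 0.067, 95% interval -0.48 to -0.18, limma adjusted p = 0.030) on the log2(TPM + 1) scale, which understates changes at such levels. The call was lost without DMSO replicate 3 (adjusted p = 0.079) and without TVA replicate 1, 2 or 3 (adjusted p = 0.084, 0.13 and 0.13). It was also lost with the replicate number as a block (adjusted p = 0.073) and with all genes above 0 TPM in the fit (adjusted p = 0.065). Cd40lg did not enter the fit restricted to means of 10 TPM or more. CD4 T cells, which the bead purification is meant to remove, are the main source of CD40 ligand. Of their 2 markers neither passed, with Cd4 at 3.80 to 4.46 TPM in DMSO and 3.33 to 3.64 TPM in TVA (log2 difference -0.19, limma adjusted p = 0.12). The part of any that were left in the change of Cd40lg was not tested.

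Slamf1 encodes a self-binding receptor of the SLAM family that signals through the adaptor SAP. It had 79.4, 87.0 and 81.5 TPM in DMSO and 74.8, 77.2 and 76.7 TPM in TVA. The groups did not overlap, yet the log2 difference of -0.11 (95% interval -0.22 to -0.01) did not pass (limma adjusted p = 0.12), and it passed only with GC correction (log2 -0.19, adjusted p = 0.016) among the 14 alternatives. Cd226 (chromosome 18, 89176967 to 89272229, plus strand) encodes an adhesion receptor that binds CD155 (Pvr) and CD112 (Nectin2) and costimulates cytotoxic cells. Its levels were 81.3, 90.5 and 87.6 TPM in DMSO and 80.1, 83.7 and 83.2 TPM in TVA. The groups overlapped, and the log2 difference was -0.07 (95% interval -0.18 to 0.04, limma adjusted p = 0.35), or -0.15 after GC correction (adjusted p = 0.035). Transcripts of both genes have a low GC content (42.8% each), as do those of Cd28 (41.2%), Icos (42.4%) and Cd40lg (44.7%), while the 5 TNF receptor family members lie between 50.7% (Tnfrsf9) and 56.6% (Tnfrsf1b).

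**Figure D2:**
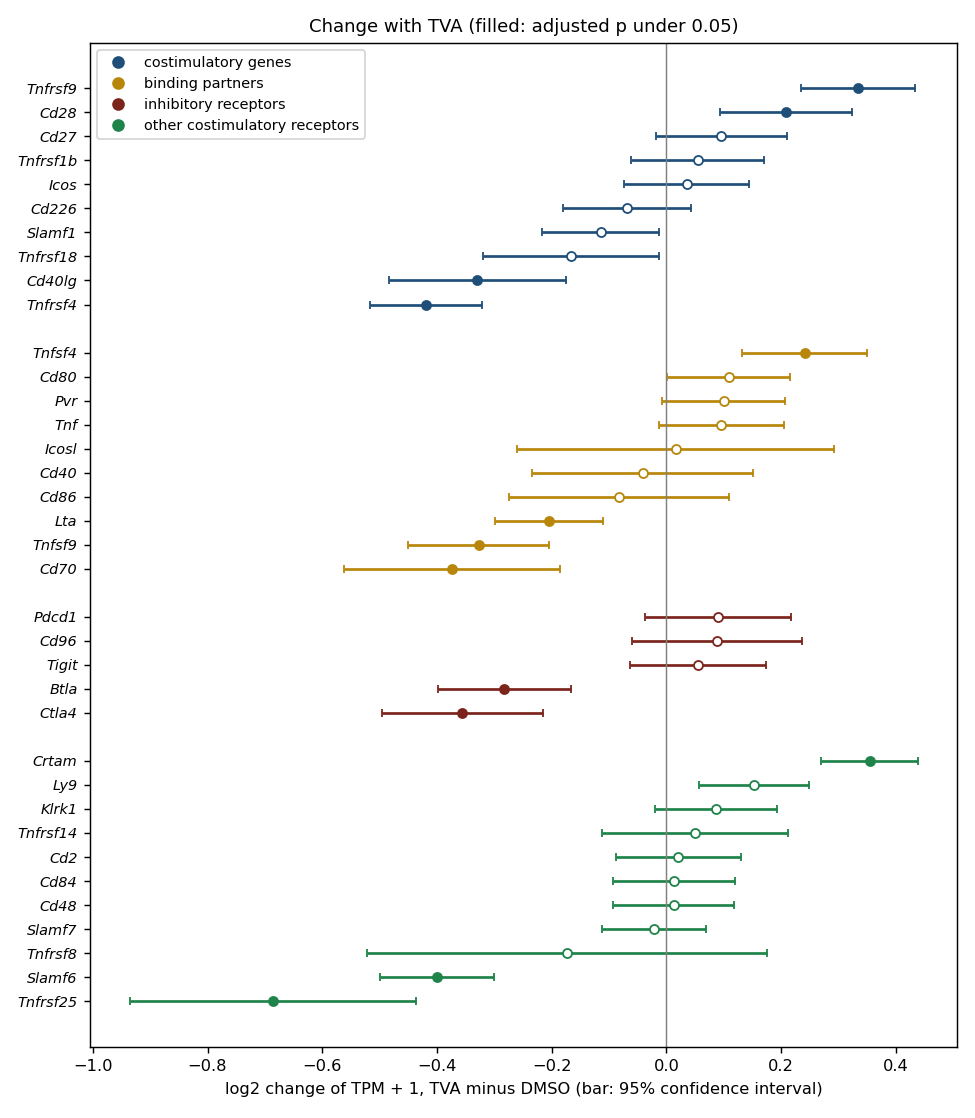
Fitted log2 change of TPM + 1 (TVA minus DMSO, horizontal axis) with its 95% interval for the 10 costimulatory genes, their binding partners, inhibitory counterparts and other costimulatory receptors, with filled points for genes that passed the test. Tnfrsf9 (0.33) and Cd28 (0.21) lie to the right of 0 and Tnfrsf4 (-0.42) and Cd40lg (-0.33) to the left, and the intervals of Icos, Cd27, Tnfrsf1b and Cd226 include 0.

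The order of the levels was the same in both groups. By mean TPM it ran Tnfrsf9, Tnfrsf18, Tnfrsf4, Cd27, Cd28, Cd226, Slamf1, Icos, Tnfrsf1b and Cd40lg. In DMSO the libraries of Tnfrsf9 and Tnfrsf18 overlapped, as did those of Cd226 and Slamf1, so the order within these pairs was not resolved. In TVA no neighbours overlapped: Tnfrsf9, at 401 TPM or more, stood apart from Tnfrsf18, at 288 TPM or less. Among all genes tested, mean levels reached the percentiles 96.8 (Tnfrsf9), 95.9 (Tnfrsf18) and 94.6 (Tnfrsf4) at the top and 15.5 (Cd40lg) at the bottom. The coefficient of variation of the 10 genes was 4.44% to 9.23% over the DMSO libraries and 0.758% to 4.69% over the TVA libraries.

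The binding partners of the 10 products are known mainly from antigen-presenting cells, but activated T cells also make several of them. Of 12 listed partner genes 10 were tested, and 4 passed, 1 higher (Tnfsf4) and 3 lower (Tnfsf9, Cd70 and Lta), beside 8.51% of all genes. The median log2 change of the 10 was -0.01, beside 0.04 for all genes.

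Tnfsf4 encodes OX40 ligand, the partner of Tnfrsf4. It had 113, 126 and 122 TPM in DMSO and 141, 141 and 145 TPM in TVA. The groups did not overlap, and it rose by 0.24 on the log2 scale (SE 0.047, limma adjusted p = 0.027). Tnfsf9 encodes 4-1BB ligand, the partner of Tnfrsf9. It had 15.9, 17.7 and 17.3 TPM in DMSO and 13.7, 13.2 and 13 TPM in TVA. It fell by 0.33 on the log2 scale (SE 0.053, limma adjusted p = 0.016), again with no overlap. In both pairs the ligand and the receptor transcript thus moved in opposite directions, Tnfrsf4 down and Tnfsf4 up, Tnfrsf9 up and Tnfsf9 down. Cd70, which encodes the partner of CD27, had 21.4, 17.4 and 17.2 TPM in DMSO and 14.2, 14.1 and 13.9 TPM in TVA. It fell by 0.37 on the log2 scale (SE 0.081, limma adjusted p = 0.036), while Cd27 itself did not pass. Lta, which encodes lymphotoxin alpha, a ligand of TNFR2, fell from 220.3 ± 8.65 to 191 ± 3.42 TPM (SD, n = 3, log2 -0.21, limma adjusted p = 0.028). All of these calls were lost without TVA replicate 1, 2 or 3. The adjusted p values in those fits were 0.096, 0.12 and 0.13 for Tnfsf4, 0.064, 0.092 and 0.092 for Tnfsf9, 0.11, 0.14 and 0.14 for Cd70, and 0.092, 0.14 and 0.14 for Lta. Without DMSO replicate 3 they were 0.062 for Tnfsf4, 0.055 for Tnfsf9 and 0.059 for Cd70.

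The other partners did not pass. Cd80, at 32.5 ± 1.44 TPM in DMSO and 35.1 ± 0.921 TPM in TVA (SD, n = 3), had a log2 difference of 0.11 (limma adjusted p = 0.15). Cd86, the other ligand of CD28, stood at 2.60 to 3.38 TPM over the 6 libraries, and Icosl, the ligand of ICOS, at 1.22 to 1.94 TPM. Tnf, the main ligand of TNFR2, had 157 ± 8.66 and 168 ± 3.03 TPM (log2 0.10, limma adjusted p = 0.20). Pvr, the CD155 ligand of CD226, had 18.5 ± 0.552 and 19.9 ± 0.706 TPM (log2 0.10, limma adjusted p = 0.18). Cd40 stood at 1.68 to 2.17 TPM. Tnfsf18, the ligand of GITR, was at 0.04 TPM or less and Nectin2 at 0.19 TPM or less in every library, and neither entered the test.

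The receptors CTLA-4, PD-1, BTLA, TIGIT and CD96 restrain T cells and share a ligand or family with the receptors above. Of their 5 genes 2 fell, Ctla4 as given above and Btla, and none rose, beside 3.23% of all genes called lower and 5.28% higher, with a median log2 change of 0.05 over the 5. Without DMSO replicate 2, 2 were called lower and 1 higher, beside 20.6% of all genes called. Btla went from 97.6 ± 5.72 to 80.0 ± 2.15 TPM (SD, n = 3, log2 -0.28, limma adjusted p = 0.021), a call lost without DMSO replicate 3 (adjusted p = 0.059) and without TVA replicate 1, 2 or 3 (adjusted p = 0.091, 0.092 and 0.10). TIGIT and CD96 compete with CD226 for CD155. Tigit had 152 ± 9.86 and 157 ± 2.70 TPM (log2 0.05, limma adjusted p = 0.48), and Cd96 had 67.5 ± 5.48 and 71.7 ± 2.90 TPM (log2 0.09, limma adjusted p = 0.37), with overlapping groups for both.

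Among 13 other costimulatory and adhesion receptors, 11 were tested, and 1 rose (Crtam) and 2 fell (Slamf6 and Tnfrsf25), beside 8.51% of all genes called, with a median log2 change of 0.01. Without DMSO replicate 2, 2 were called higher and 2 lower, beside 20.6% of all genes. Crtam, an adhesion receptor induced on activated CD8 T cells, had 240.2, 240.0 and 231 TPM in DMSO and 297, 303 and 310.5 TPM in TVA. It rose by 0.35 on the log2 scale (SE 0.036, limma adjusted p = 0.0034) and passed in all 14 alternatives. Slamf6, a relative of Slamf1, had 26.1, 27.8 and 26.9 TPM in DMSO and 19.8, 20.6 and 20.1 TPM in TVA. It fell by 0.40 on the log2 scale (SE 0.043, limma adjusted p = 0.0042) and also passed in all 14. Tnfrsf25, which encodes the death domain receptor DR3, fell from 6.14 ± 0.870 to 3.43 ± 0.456 TPM (SD, n = 3, log2 -0.69, limma adjusted p = 0.016), a call lost without TVA replicate 1 (adjusted p = 0.068) or TVA replicate 3 (adjusted p = 0.076).

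The signalling genes below the receptors did not pass. None of 13 genes downstream of CD28 and ICOS (such as Lck and Vav1) passed limma in either direction, with 3 at an unadjusted p under 0.05 and a median log2 change of -0.03. None of 14 TRAF adaptors and NF-kB regulators downstream of the TNF receptor family passed, with 4 at an unadjusted p under 0.05 and a median of -0.00138. None of 7 genes that act with SLAMF1 and CD226 passed, with 2 at an unadjusted p under 0.05 and a median of 0.08. Of all genes tested, 31.8% had an unadjusted p under 0.05. These zero counts turned on the libraries and settings: without DMSO replicate 2, 1, 4 and 1 genes of the 3 lists passed, beside 20.6% of all genes, without DMSO replicate 1, 1 passed in the CD28 list and 1 in the SLAMF1 list, beside 8.7%, and after GC correction 1, 3 and 1 passed, beside 10.3%.

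Roquin (Rc3h1) and Regnase-1 (Zc3h12a) are RNA-binding factors known to promote the decay of Icos and Tnfrsf4 mRNA. Of 5 genes of the Roquin and Regnase families 4 were tested, and 2 fell, beside 3.23% of all genes called lower. Zc3h12a had 32.4, 28.4 and 28.0 TPM in DMSO and 24.9, 24.0 and 24.5 TPM in TVA (log2 -0.26, limma adjusted p = 0.041), and Zc3h12d went from 51.1 ± 0.504 to 45.2 ± 1.19 TPM (SD, n = 3, log2 -0.17, limma adjusted p = 0.036). Neither call held without DMSO replicate 3 (adjusted p = 0.061 and 0.070) or without TVA replicate 1, 2 or 3 (0.11, 0.17 and 0.15 for Zc3h12a, and 0.12, 0.14 and 0.14 for Zc3h12d). Rc3h1 had 23.6 ± 0.683 and 24.6 ± 1.48 TPM (log2 0.06, limma adjusted p = 0.46), a difference of -0.03 after GC correction.

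Of 10 genes that costimulation is known to raise, 1 rose (Birc5) and 2 fell (Il2 and Slc2a1), beside 8.51% of all genes called, with a median log2 change of -0.09, beside 0.04 for all genes. Il2, the growth factor that CD28 engagement both induces and stabilises, had 499.6, 517 and 499.6 TPM in DMSO and 357, 361 and 362 TPM in TVA. It fell by 0.49 on the log2 scale (limma adjusted p = 7.2e-04), with no overlap, and passed in all 14 alternatives. Birc5, which encodes the mitotic and survival protein survivin, went from 135 ± 3.02 to 154 ± 5.92 TPM (SD, n = 3, log2 0.19, limma adjusted p = 0.035). Slc2a1, which encodes the glucose transporter GLUT1, went from 94.1 ± 6.33 to 79.4 ± 0.870 TPM (SD, n = 3, log2 -0.24, limma adjusted p = 0.035). The calls of Birc5 and Slc2a1 were lost without DMSO replicate 3 (adjusted p = 0.079 and 0.063) and without TVA replicate 1, 2 or 3 (0.074, 0.16 and 0.16 for Birc5, and 0.10, 0.15 and 0.14 for Slc2a1). Without DMSO replicate 2, 5 of the 10 genes passed, beside 20.6% of all genes.

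Ratios of a pair of genes within the same library do not depend on the scaling of that library. The relation of the changes to GC content does not cancel where the genes differ in it, as Tnfrsf4 (54.9%) and Tnfsf4 (42.8%) do. For 8 pairs chosen after the values were seen, the ratios are given as a description, without a test. The ratio of Tnfrsf9 to Tnfrsf4 was 1.27, 1.15 and 1.21 in DMSO and 2.01, 2.08 and 2.03 in TVA, a mean 1.69-fold higher. Tnfrsf9 was the more abundant transcript in all 6 libraries, and the TVA libraries lay close to each other and above every DMSO library. The ratio of Tnfrsf18 to its neighbour Tnfrsf4 was 1.19, 1.23 and 1.12 in DMSO and 1.44, 1.43 and 1.36 in TVA. The ratio of Cd28 to Ctla4 was 1.71, 1.66 and 1.72 in DMSO and 2.32, 2.59 and 2.68 in TVA, 1.49-fold higher, and that of Cd28 to Icos was 1.13-fold higher. The ratio of Tnfrsf4 to its ligand Tnfsf4 was 2.35, 2.22 and 2.09 in DMSO and 1.41, 1.40 and 1.39 in TVA. In the opposite direction, the ratio of Tnfrsf9 to its ligand Tnfsf9 was 21.2, 18.2 and 17.8 in DMSO and 29.2, 31.1 and 31.3 in TVA. The ratio of Cd27 to Cd70 was 1.41-fold higher with TVA, and that of Cd226 to Tigit went from 0.570, 0.558 and 0.582 to 0.519, 0.528 and 0.522. The groups did not overlap for any of the 8 pairs, where 38.6% of single genes tested did not overlap. The pairs were chosen with the values known, so this count is no result, and no share over other pairs was computed.

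**Figure D3:**
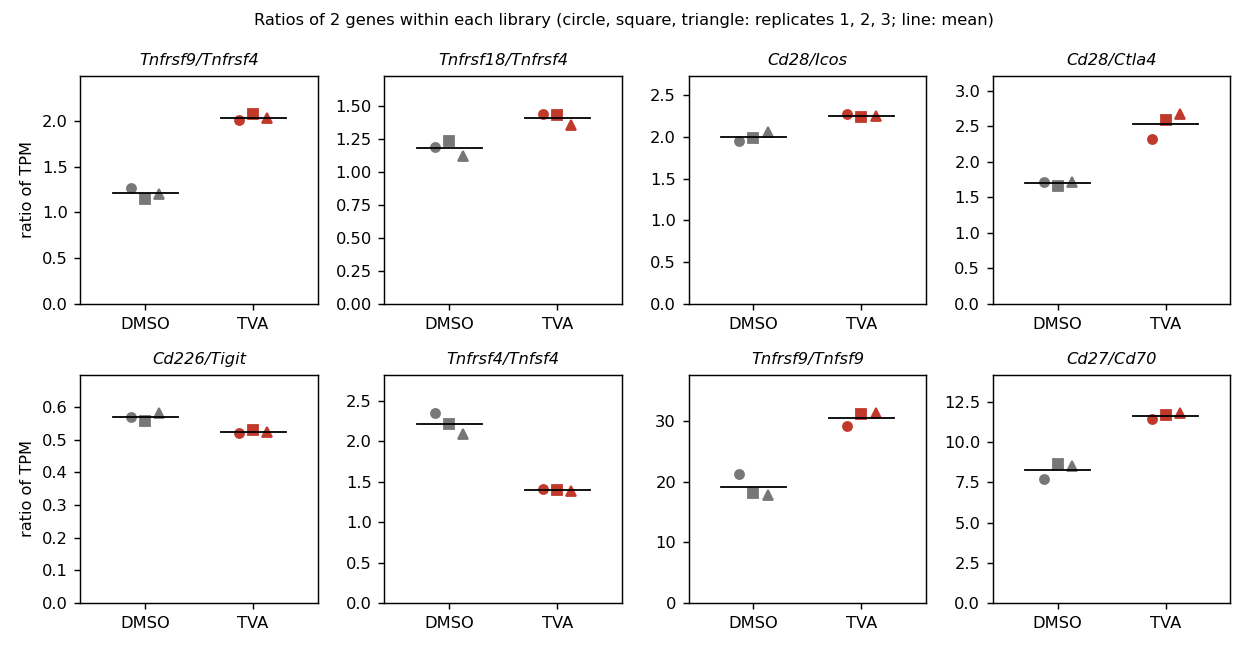
Ratio of the TPM of 2 genes within each library (vertical axis from 0, a separate scale for each pair) for 8 pairs in the 3 DMSO and 3 TVA libraries, with a line at each mean. The Tnfrsf9 to Tnfrsf4 ratio lies at 1.15 to 1.27 in DMSO and 2.01 to 2.08 in TVA. The pairs were chosen with the values known, so the place of DMSO replicate 2 (square) in them is a description only.

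**Figure D4:**
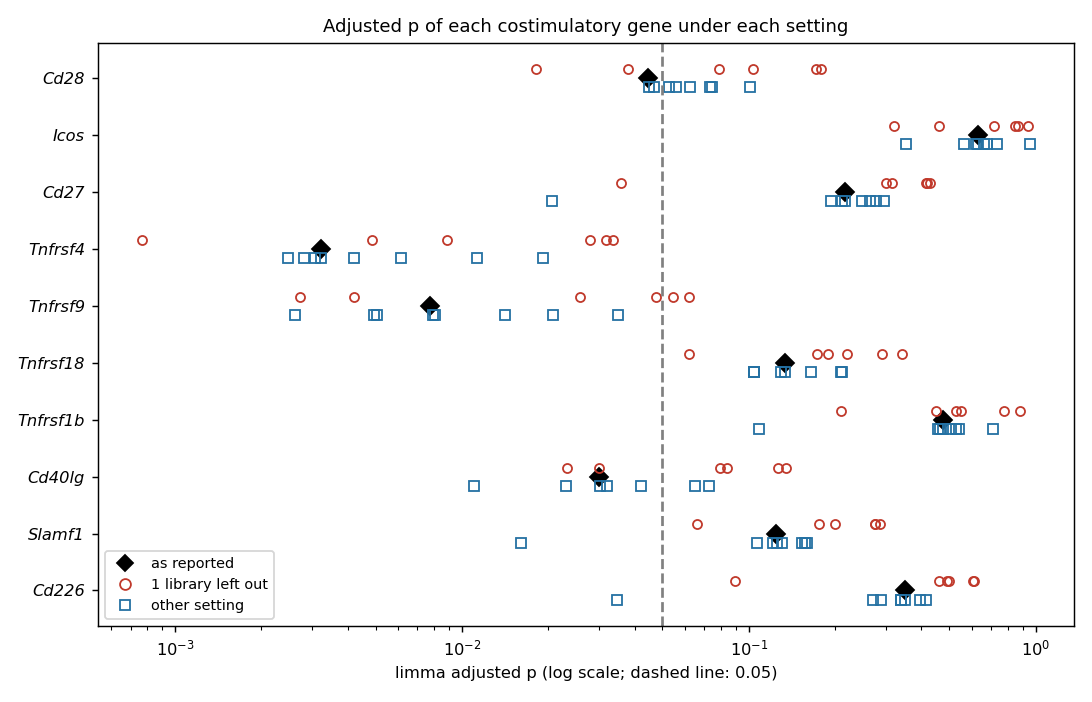
Adjusted p (limma, horizontal axis on a log scale, dashed line at 0.05) of each of the 10 genes as reported and under each alternative setting. All points of Tnfrsf4 lie left of the line (0.034 or less), those of Cd28 lie on both sides (0.018 to 0.18), and those of Icos, Tnfrsf18 and Tnfrsf1b lie to its right.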

How the data were processed

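The authors deposited 1 table of TPM per gene symbol for 6 libraries, made per the labels with a SMARTER mRNA-Seq kit. The submitters' processing notes name STAR, RSEM and mm10 without versions, and the annotation release and strand setting are not given in the sources used here. TPM keeps no depth, so depth is unknown and counting error is not given. The deposited values were used as they stood. Groups came from the sample titles.

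Genes with at least 1 TPM in at least 3 libraries (10866) were compared on log2(TPM + 1), TVA minus DMSO, with limma 3.58.1 in R 4.3.3 (variance trend, two-sided, Benjamini-Hochberg adjustment over all genes tested, threshold 0.05). On this scale changes of low genes are understated. The fit was also run on simulated data. These had independent noise per gene, no deviating library and no GC trend, so the run does not bear on those features. Alternatives were a pseudocount of 0.1, all genes above 0 TPM, means of 10 TPM or more, median-of-ratios scaling, quantile normalization, no variance trend, a replicate block, each library left out, a change of at least 1.5-fold and, added after seeing the data, a GC correction (loess, span 0.5, GC from GENCODE vM21 for 97.4% of genes). The 14 alternatives referred to for single genes leave out the 1.5-fold cut, which was applied to the counts only. GENCODE vM21 and RefSeq GRCm38.p6 supplied positions and promoters, since mm10 is that build. Figures were drawn with matplotlib 3.10.9.

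The 10 genes, the context lists and the tests were chosen with earlier results of these data known. Named genes were the 10, with their binding partners and Ctla4, Tigit, Cd96, Rc3h1 and Zc3h12a, and up to 4 genes by smallest p among those passing in each context list. Marker genes, and the signalling genes named as examples of their lists, fall outside this rule.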

Additional observations from a re-analysis of the deposited data

How the results depend on the processing

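Over 14 alternatives, the 10 costimulatory genes gave 139 values, of which 116 kept direction and side of the threshold, 18 lost the call, 4 gained it and 1 changed sign (Icos, -0.048 with GC correction). The 4 calls became 2 with all genes above 0 TPM (1 higher, 1 lower), 2 under the replicate block (1 higher, 1 lower), 0 at 1.5-fold (0 higher, 0 lower) and 1 to 5 with a library left out (0 to 3 higher, 1 to 2 lower). Calls as higher were 1 with median-of-ratios scaling, quantile normalization or no variance trend, and calls as lower were 1 with a mean of at least 10 TPM, which leaves out Cd40lg, and 4 with GC correction. For the partner genes, the 4 calls became 0 under the block and at 1.5-fold and 0 to 4 with a library left out. For the inhibitory receptors, 2 became 1 under the block, 0 at 1.5-fold and 0 to 3 with a library left out. The 3 calls among other costimulatory receptors became 2 under the block and 1 at 1.5-fold. For the decay factors, 2 became 1 with all genes above 0 TPM or no trend, 0 under the block or at 1.5-fold and 0 to 2 with a library left out. For the costimulation targets, 3 became 1 with all genes above 0 TPM or under the block, 0 at 1.5-fold and 1 to 5 with a library left out. The signalling lists, with 0 calls, gave 1 for the TNF receptor and SLAMF1 lists with either rescaling, 1, 3 and 1 with GC correction, and 0 to 1, 0 to 4 and 0 to 1 with a library left out. The cause of these shifts was not tested. Other reversals had small values: Icosl -0.0017 with median-of-ratios scaling, -0.0070 with GC correction and -0.058 to 0.145 with a library left out, Cd40 -0.11 to 0.0085 with a library left out (above 0 without TVA replicate 2), and Rc3h1 -0.027 with GC correction. Deviations from the group mean in libraries with the same number had correlations of 0.16, 0.035 and -0.077. With 3 libraries per group these cannot tell whether the numbers pair the libraries. The replicate block called 218 of all genes (2.01%) in place of 925. TPM keeps no depth, so what depth limits is unknown.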

Other observations

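Genes raised by T cell activation were counted beside the costimulatory genes. Of 3 such genes (Il2ra, Cd69 and Cd44) none passed limma (0 of 3, with 1 at an unadjusted p under 0.05), with log2 differences of 0.10, -0.02 and 0.05.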
